A study of Saccharomyces cerevisiae with 36 samples.

Results

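The copper uptake and delivery genes of budding yeast are 6 genes of 7127 counted features, chosen by their systematic names: CTR1 (YPR124W), CTR2 (YHR175W), CTR3 (YLR411W), ATX1 (YNL259C), CCC2 (YDR270W) and MAC1 (YMR021C). All 6 were listed for each of the 36 libraries. The strains were cth1Δcth2Δ, a double deletion mutant that lacks the RNA-binding proteins Cth1 and Cth2, and its wild type, W303a. Cells of both strains grew in synthetic complete medium and were collected before (0 h) and 3 h and 6 h after the iron(II) chelator bathophenanthroline disulfonate (BPS) was added at 100 µM. Each lysate was split between RNA-seq of poly(A) RNA and Ribo-seq, which counts mRNA fragments held by single ribosomes (footprints), with 3 biological replicates in each of the 12 groups. The labels do not say how many clones of the mutant were used. The comparisons ask how copper supply genes change over hours in BPS and whether the loss of Cth1 and Cth2 alters that. No culture without BPS was sampled at 3 h or 6 h, so BPS and hours of growth cannot be told apart. Below, a response to BPS means the change against 0 h.

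Copper enters yeast as a reduced ion. Ctr1 and Ctr3 are high-affinity copper transporters of the plasma membrane, and Ctr2 releases copper from the vacuole. The cytosolic chaperone Atx1 hands copper to Ccc2, a copper-pumping ATPase of the late Golgi, which loads the multicopper oxidase Fet3. Fet3 and the permease Ftr1 form the high-affinity iron uptake complex, so iron uptake depends on copper delivery. Mac1 is the copper-sensing activator of CTR1, CTR3 and the reductase genes FRE1 and FRE7, while Aft1 and Aft2 activate iron-uptake genes, ATX1 and CCC2 among them. Cth1 and Cth2 bind AU-rich elements in mRNAs under iron deficiency and promote their decay and repress their translation.

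The genes differ in the sequence before their start codons, and these stretches are shown because CTR1 carries matches to one activator's element and CCC2 and ATX1 to the other's. Each line is in the 5′ to 3′ direction of the gene, from the R64 assembly of strain S288C, with the position on the chromosome and the strand of the gene. In the first 3 lines the capitals mark a match; in the CTR3 line they mark the end of a Ty2 retrotransposon.
CTR1, chrXVI:785863-785913, plus strand: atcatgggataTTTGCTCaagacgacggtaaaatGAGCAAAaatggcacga
CCC2, chrIV:1005375-1005449, plus strand: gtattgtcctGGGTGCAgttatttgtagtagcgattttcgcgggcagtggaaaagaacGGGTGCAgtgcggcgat
ATX1, chrXIV:157961-157990, minus strand: tttttttggGGGTGCAaagttggcacatct
CTR3, chrXII:947135-947164, plus strand: ATCCACATTCTCTTCActtctccgatagac
The Mac1 element was searched as TTTGCTC and the Aft element as TGCACCC, on both strands (GAGCAAA and GGGTGCA on the other) of the 500 bases before the start codon. CTR1 held 2 Mac1 matches, which began 334 and 311 bases before the start codon. CCC2 held 2 Aft matches, which began 290 and 242 bases before it, and ATX1 held 1, which began 116 bases before it. CTR2, CTR3 and MAC1 held no match to either. Over 6002 annotated genes, 8.61% of such windows held the Mac1 letters and 2.33% the Aft letters. The AU-rich letters TTATTTAT, searched on the coding strand in the 300 bases after the stop codon, occurred for 6.86% of genes and for 0 of the 6. A match of letters is a description and shows no binding. Only these exact letters were searched, so a lack of matches does not show that an element is absent.

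**Figure D1:**
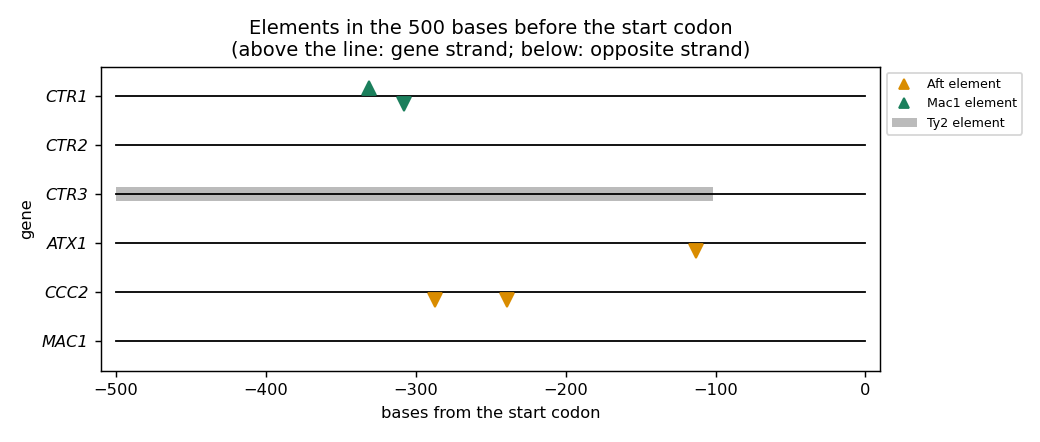
Matches to the Mac1 and Aft elements, and the Ty2 element, in the 500 bases before the start codon of each gene; the x axis gives bases from the start codon, and markers above or below a line are on the gene's or the opposite strand. CTR1 has 2 Mac1 matches, CCC2 has 2 Aft matches, ATX1 has 1, and the Ty2 element ends 102 bases before CTR3.

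Each of the 6 genes has 1 exon and overlaps no other annotated gene in R64. CTR1 lies on chromosome XVI from 786208 to 787428, CTR2 on chromosome VIII from 452872 to 453441 and CTR3 on chromosome XII from 947253 to 947978. ATX1 lies on chromosome XIV from 157644 to 157865, CCC2 on chromosome IV from 1005675 to 1008689 and MAC1 on chromosome XIII from 317165 to 318418. ATX1 and MAC1 are on the minus strand and the others on the plus strand. In that assembly a Ty2 element spans 941192 to 947150 of chromosome XII, 102 bases before the start codon of CTR3. Whether W303a carries it was not tested.

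Levels are CPM, a gene's count as a share of the library's total after TMM scaling, which sets libraries on a common scale. Library totals ran from 113262 to 6571727 in RNA-seq and from 607936 to 28491058 in Ribo-seq, so 3 counts correspond to 0.463 to 22.2 CPM and to 0.111 to 4.31 CPM. The 3 shallowest RNA-seq libraries held 186283 counts (mutant 0 h replicate 2), 113262 and 215168 (wild type 6 h replicates 1 and 2). In a bulk culture, fewer cells that express a gene and less RNA per cell cannot be told apart. CTH1 RNA was lower in the mutant than in wild type by log2 fold changes of -5.21, -5.44 and -5.16 at 0, 3 and 6 h, and TIS11, the standard name of CTH2, by -5.82 at 3 h and -5.65 at 6 h, against -0.11 at 0 h. A change was called when the adjusted p of edgeR's quasi-likelihood F test, Benjamini-Hochberg adjusted over all features tested in the contrast, was under 0.05. In RNA, 6006 features were tested, the 6 genes among them; in Ribo-seq 5315 were, and CTR3 did not pass the filter on low counts. Scaling by library totals in place of TMM put the middle RNA feature at 6 h at a log2 change of 0.71 in the mutant and 0.62 in wild type, against 0.01 and 0.03 with TMM. It also turned the split of called features to 2422 higher and 542 lower in the mutant and 2088 higher and 484 lower in wild type, against 1069 and 1254, and 1152 and 1003, with TMM. Changes below are relative to the TMM scale.

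After 3 h in BPS the RNA of CCC2, ATX1 and CTR2 had risen in both strains, and CTR1 RNA rose later, by 6 h. In RNA at 3 h, 3 of 6 genes rose in the mutant, where 2.13% of all tested features did, and 3 of 6 in wild type, where 2.66% did. At 6 h, 4 of 6 rose in each strain, with 17.8% of all features in the mutant and 19.2% in wild type. The median log2 fold change over the 6 genes at 6 h was 1.63 in the mutant and 1.19 in wild type, beside 0.01 and 0.03 over all features. None of the 6 fell in RNA against 0 h.

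CCC2, the ATPase that passes copper into the secretory pathway, had the highest fold change at 6 h of the 6 genes in RNA and of the 5 tested in footprints, in both strains. Its RNA in the mutant was 27.6, 12.3 and 45.7 CPM at 0 h, 129, 99.8 and 207 CPM at 3 h and 199.6, 212 and 201 CPM at 6 h. In wild type it was 24.3, 14.5 and 28.8 CPM at 0 h, 164, 97.9 and 172 CPM at 3 h and 215, 347 and 209 CPM at 6 h. Every library in BPS lay above every 0 h library of its strain, and the 2 strains overlapped at each time. The change at 3 h was log2 2.17 (SE 0.39, adjusted p = 0.00191) in the mutant and 2.56 (SE 0.38, adjusted p = 0.000217) in wild type. At 6 h it was 2.62 (SE 0.39, adjusted p = 2.26e-05) in the mutant and 3.38 (SE 0.40, adjusted p = 1.52e-06) in wild type. The 0 h levels rest on 25, 2 and 151 reads in the mutant and on 133, 3 and 87 reads in wild type, and the 4 calls held when any 1 library was left out. With totals in place of TMM, the wild-type change between 6 h and 3 h, 0.82 (adjusted p = 0.0979), became 1.20 (adjusted p = 0.018).

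CCC2 footprints in the mutant were 18.2, 18.6 and 16.9 CPM at 0 h, 79.7, 72.6 and 218 CPM at 3 h and 226.4, 126 and 508 CPM at 6 h. In wild type they were 3.1, 7.85 and 11.6 CPM at 0 h, 96.9, 63.3 and 157 CPM at 3 h and 189.9, 286 and 523 CPM at 6 h. The libraries in BPS again lay above those at 0 h, and replicate 3 was the highest at 3 h and 6 h in both strains. At 6 h the footprints had risen by log2 3.99 (SE 0.62, adjusted p = 8.88e-05) in the mutant and 5.32 (SE 0.67, adjusted p = 1.36e-05) in wild type. At 3 h the change was 2.79 (SE 0.59, adjusted p = 0.0142) in the mutant and 3.66 (SE 0.63, adjusted p = 0.00218) in wild type. The mutant call at 3 h was lost when any 1 of the mutant's 0 h libraries was left out (adjusted p 0.0599 to 0.0904); the other 3 held without any 1 library. From 3 h to 6 h the wild-type change was 1.66 (adjusted p = 0.0248), lost without wild-type 3 h replicate 1 or 2 or 6 h replicate 3 (adjusted p 0.0743 to 0.130). The mutant change over the same hours was 1.20 (adjusted p = 0.0963), and with the replicate number as a block 1.20 (adjusted p = 0.00999). Without mutant 3 h replicate 3 it was 1.89 (adjusted p = 0.0266), without 6 h replicate 2 it was 1.55 (adjusted p = 0.0472), and without 6 h replicate 3 it was 0.51 (adjusted p = 0.486).

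ATX1, the chaperone that brings copper to Ccc2, rose in RNA at 3 h and 6 h. Its RNA in the mutant was 121, 67.8 and 64.1 CPM at 0 h, 359, 544 and 282 CPM at 3 h and 581, 224 and 385 CPM at 6 h. In wild type it was 104, 67.5 and 121 CPM at 0 h, 318, 660.3 and 438 CPM at 3 h and 423, 279 and 376 CPM at 6 h. The lowest library in BPS, 224 CPM, was above the highest at 0 h, 121 CPM. The changes were log2 2.19 (SE 0.41, adjusted p = 0.00315) at 3 h and 2.21 (SE 0.40, adjusted p = 0.000202) at 6 h in the mutant, and 2.23 (SE 0.40, adjusted p = 0.0014) and 1.83 (SE 0.40, adjusted p = 0.00107) in wild type. All 4 held without any 1 library.

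Of the 4 changes of ATX1 footprints against 0 h, 1 was called. In the mutant they were 15.5, 23.7 and 21.9 CPM at 0 h, 29.1, 48.9 and 48.1 CPM at 3 h and 36.8, 35.5 and 23.0 CPM at 6 h. In wild type they were 17.1, 20.9 and 18.3 CPM at 0 h, 49.7, 48.7 and 68.4 CPM at 3 h and 54.3, 20.2 and 24 CPM at 6 h. All libraries at 3 h were above those at 0 h, while 6 h and 0 h overlapped in both strains. It was wild type at 3 h (log2 1.57, SE 0.35, adjusted p = 0.0129), lost without wild-type 0 h replicate 1 or 3 (adjusted p 0.0705 and 0.0707). The mutant at 3 h gave 1.06 (SE 0.34, adjusted p = 0.096). At 6 h the changes were 0.69 (adjusted p = 0.11) in the mutant and 0.78 (adjusted p = 0.0696) in wild type. The 6 h call passed in the mutant with total-count scaling (adjusted p = 0.0455) and in wild type without 6 h replicate 2 (adjusted p = 0.0237) or replicate 3 (adjusted p = 0.0477).

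CTR1, the main high-affinity copper importer, rose between 3 h and 6 h. Its RNA in the mutant was 40.8, 24.6 and 30.8 CPM at 0 h, 18.4, 29.6 and 27.0 CPM at 3 h and 72.2, 135 and 151 CPM at 6 h. In wild type it was 30.1, 33.8 and 33.7 CPM at 0 h, 21.7, 39.4 and 32.0 CPM at 3 h and 59.3, 101 and 78.4 CPM at 6 h. The libraries at 3 h overlapped those at 0 h, and the libraries at 6 h lay above all others of their strain. The change from 3 h to 6 h was log2 2.25 (SE 0.35, adjusted p = 0.000221) in the mutant and 1.41 (SE 0.34, adjusted p = 0.00492) in wild type. CTR1 was the one gene of the 6 called in RNA between these times, in each strain, where 7.48% of all features rose in the mutant and 11.5% in wild type. Against 0 h the change at 6 h was 1.83 (SE 0.34, adjusted p = 0.00023) in the mutant and 1.33 (SE 0.35, adjusted p = 0.00461) in wild type, and at 3 h -0.42 (adjusted p = 0.569) and -0.08 (adjusted p = 0.955). The 4 calls held without any 1 library.

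CTR1 footprints in the mutant were 17.1, 22.0 and 22.4 CPM at 0 h, 31.6, 15.9 and 43.9 CPM at 3 h and 108, 147 and 327 CPM at 6 h. In wild type they were 17.8, 21.8 and 29.0 CPM at 0 h, 9.23, 46.0 and 36.9 CPM at 3 h and 60.8, 62.9 and 130.5 CPM at 6 h. The 6 h libraries again stood above the others of their strain, and replicate 3 was the highest at 6 h in both strains. Against 0 h the change at 6 h was log2 3.22 (SE 0.58, adjusted p = 0.000272) in the mutant and 1.86 (SE 0.55, adjusted p = 0.00996) in wild type. The wild-type call was lost without 6 h replicate 3 (1.40, adjusted p = 0.0577), and the mutant call held without any 1 library. From 3 h to 6 h the change was 2.65 (SE 0.55, adjusted p = 0.00182) in the mutant and 1.49 (SE 0.53, adjusted p = 0.0351) in wild type. That wild-type call was lost without wild-type 3 h replicate 1 or 3 or 6 h replicate 3 (adjusted p 0.0565 to 0.171), and with only the 2 groups in the fit (adjusted p = 0.0938).

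CTR3, the second high-affinity importer of the plasma membrane, was low throughout. Its RNA in the mutant was 7.72, 6.16 and 18.4 CPM at 0 h, 18.4, 14.8 and 6.91 CPM at 3 h and 16.6, 9.12 and 10.1 CPM at 6 h. In wild type it was 11.7, 4.82 and 13.6 CPM at 0 h, 9.08, 8.36 and 9.76 CPM at 3 h and 22.2, 0 and 16 CPM at 6 h. The groups overlapped at every time, and 4 of the 18 RNA-seq libraries held 3 or fewer CTR3 reads. Its changes against 0 h ranged from log2 -0.34 to 0.18 with SEs from 0.56 to 0.61, and none was called. Ribo-seq held 0 to 41 CTR3 reads per library, 3 or fewer in 7 of 18, at 0 to 2.63 CPM. At this depth CTR3 did not pass the low-count filter in Ribo-seq, so a change of its footprints was not tested.

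CTR2, the vacuolar copper exporter, rose in RNA at 3 h and 6 h. Its RNA in the mutant was 35.3, 24.6 and 74.4 CPM at 0 h, 145, 126 and 137 CPM at 3 h and 149, 139 and 117 CPM at 6 h. In wild type it was 42.0, 48.2 and 56.9 CPM at 0 h, 130.2, 101 and 122 CPM at 3 h and 81.6, 97.7 and 115 CPM at 6 h. All libraries in BPS were above those at 0 h of their strain. The changes were log2 1.45 (SE 0.33, adjusted p = 0.0141) at 3 h and 1.43 (SE 0.32, adjusted p = 0.00129) at 6 h in the mutant, and 1.27 (SE 0.32, adjusted p = 0.0218) and 1.04 (SE 0.33, adjusted p = 0.0164) in wild type. The mutant call at 3 h was lost without mutant 0 h replicate 1 or 2 or 3 h replicate 1 (adjusted p 0.0542 to 0.0556). The wild-type call at 3 h was lost without 0 h replicate 1 or 2 or 3 h replicate 1 or 3 (adjusted p 0.064 to 0.140), and at 6 h without 0 h replicate 1 (adjusted p = 0.0851) or 6 h replicate 3 (adjusted p = 0.102).

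CTR2 footprints were highest at 3 h. In the mutant they were 23.3, 28.8 and 16.7 CPM at 0 h, 62.0, 76.8 and 86.2 CPM at 3 h and 47.4, 54.3 and 28.7 CPM at 6 h. In wild type they were 26.4, 22.7 and 30.7 CPM at 0 h, 100.4, 57.7 and 109 CPM at 3 h and 66.5, 22.5 and 24.8 CPM at 6 h. The 3 h libraries stood above the 0 h libraries in both strains, and the 6 h libraries overlapped them. The change at 3 h was log2 1.75 (SE 0.39, adjusted p = 0.0215) in the mutant and 1.73 (SE 0.39, adjusted p = 0.0139) in wild type; leaving out any 1 of the 0 h libraries of the strain, or mutant 3 h replicate 2, ended these calls (adjusted p 0.052 to 0.115). At 6 h it was 0.99 (SE 0.39, adjusted p = 0.0448) in the mutant and 0.47 (adjusted p = 0.325) in wild type. The mutant call at 6 h was lost without the low-count filter (adjusted p = 0.0526) and without mutant 0 h replicate 1 or 3 or 6 h replicate 1 or 2 (adjusted p 0.092 to 0.173). From 3 h to 6 h the footprints fell in wild type by 1.26 on the log2 scale (adjusted p = 0.0152), and the change in the mutant was -0.75 (adjusted p = 0.13). The wild-type fall was not called without 3 h replicate 1 or 3 or 6 h replicate 2 or 3 (adjusted p 0.0558 to 0.0715), nor with only the 2 groups in the fit (adjusted p = 0.0885).

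MAC1, the copper-sensing activator, was not called in RNA at any time in either strain. Its RNA in the mutant was 35.3, 37.0 and 25.1 CPM at 0 h, 53.4, 25.9 and 41.1 CPM at 3 h and 42.0, 63.8 and 38.7 CPM at 6 h. In wild type it was 41.8, 48.2 and 30.4 CPM at 0 h, 43.9, 35.8 and 34.0 CPM at 3 h and 29.7, 36.2 and 51.7 CPM at 6 h. The 6 h libraries of the mutant were above its 0 h libraries, and in wild type they overlapped. At 6 h the change was log2 0.63 (SE 0.34, adjusted p = 0.147) in the mutant, or 1.31 (adjusted p = 0.00469) with total-count scaling, and 0.17 (SE 0.34, adjusted p = 0.741) in wild type.

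MAC1 footprints were higher at 6 h. In the mutant they were 38.8, 33.9 and 27.2 CPM at 0 h, 43.1, 35.6 and 27.8 CPM at 3 h and 50.4, 73.9 and 51.7 CPM at 6 h. In wild type they were 33.3, 26.2 and 24.6 CPM at 0 h, 36.2, 32.2 and 29.8 CPM at 3 h and 55.6, 64 and 49.9 CPM at 6 h. No 6 h library overlapped the earlier ones of its strain. Against 0 h they had risen by log2 0.83 (SE 0.24, adjusted p = 0.00779) in the mutant, lost without mutant 6 h replicate 2 (0.62, adjusted p = 0.0569), and by 1.03 (SE 0.24, adjusted p = 0.00203) in wild type. From 3 h the changes were 0.74 (adjusted p = 0.0217) in the mutant and 0.79 (adjusted p = 0.0134) in wild type. With only the 2 groups in the fit neither was called (adjusted p 0.0675 and 0.0729), and the mutant one was lost without mutant 3 h replicate 2 or 3 or 6 h replicate 2 (adjusted p 0.0655 to 0.126), the wild-type one without 3 h replicate 3 (adjusted p = 0.0639) or 6 h replicate 2 (adjusted p = 0.0502).

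**Figure D2:**
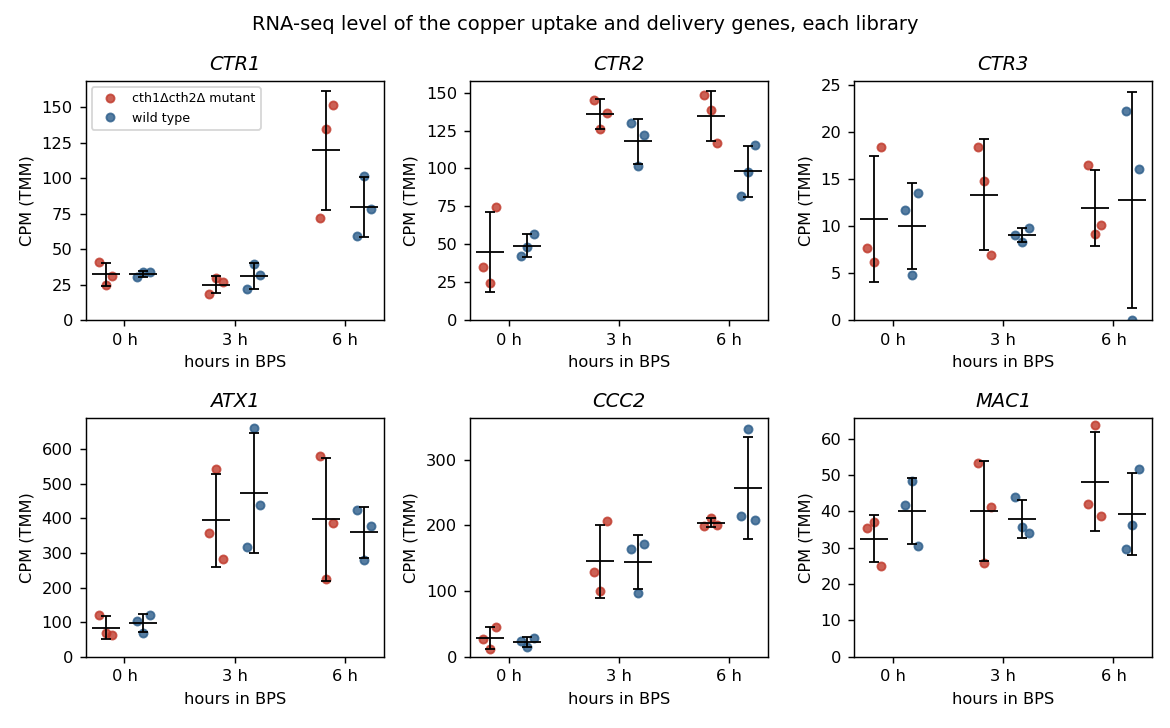
RNA-seq level (CPM, TMM scaled) of each gene in every library by hours in BPS; dots are single libraries, with the mutant left of wild type, and black marks are mean and SD of 3 replicates. CCC2, ATX1 and CTR2 are higher at 3 h and 6 h than at 0 h in both strains, CTR1 is higher at 6 h, and CTR3 stays at 22.2 CPM or lower.

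**Figure D3:**
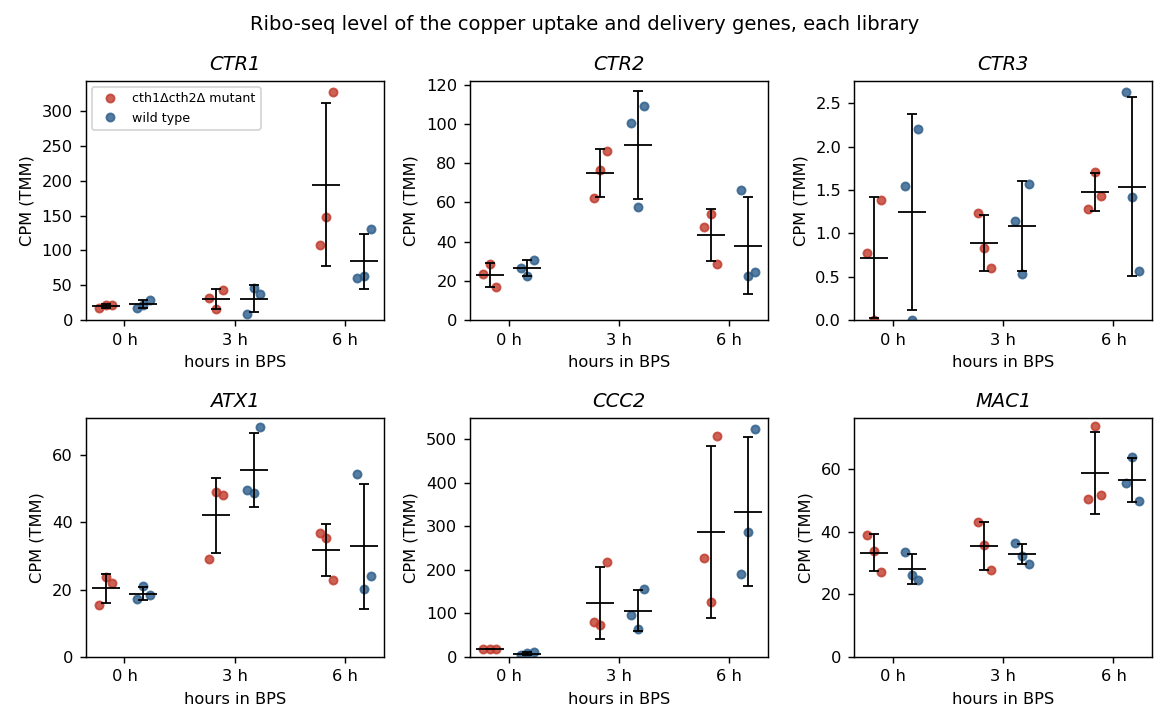
Ribo-seq level (CPM, TMM scaled) of each gene in every library by hours in BPS, drawn as for RNA-seq. CTR1 reaches 108 to 327 CPM in the mutant and 60.8 to 130.5 CPM in wild type at 6 h, and CTR3 stays at 2.63 CPM or lower.

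Of the 5 genes tested in Ribo-seq, 2 rose at 3 h in the mutant, with 2.86% of all tested features, and 3 in wild type, with 3.67%. At 6 h 4 rose in the mutant, with 26.2% of all features, and 3 in wild type, with 28.5%. Between 3 h and 6 h, 2 rose in the mutant, with 17.3% of all features; in wild type 3 rose, with 21.7% of all features, and 1 fell, with 40.4% of all features called in either direction. The median log2 fold change of the 5 genes at 6 h was 0.99 in the mutant and 1.03 in wild type, beside 0.07 and 0.09 over all features. By 6 h, in RNA CCC2, ATX1, CTR1 and CTR2 were called in both strains and MAC1 in neither, while in footprints CCC2, CTR1 and MAC1 were called in both and ATX1 in neither. The difference between the assays is tested as translational efficiency.

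**Figure D4:**
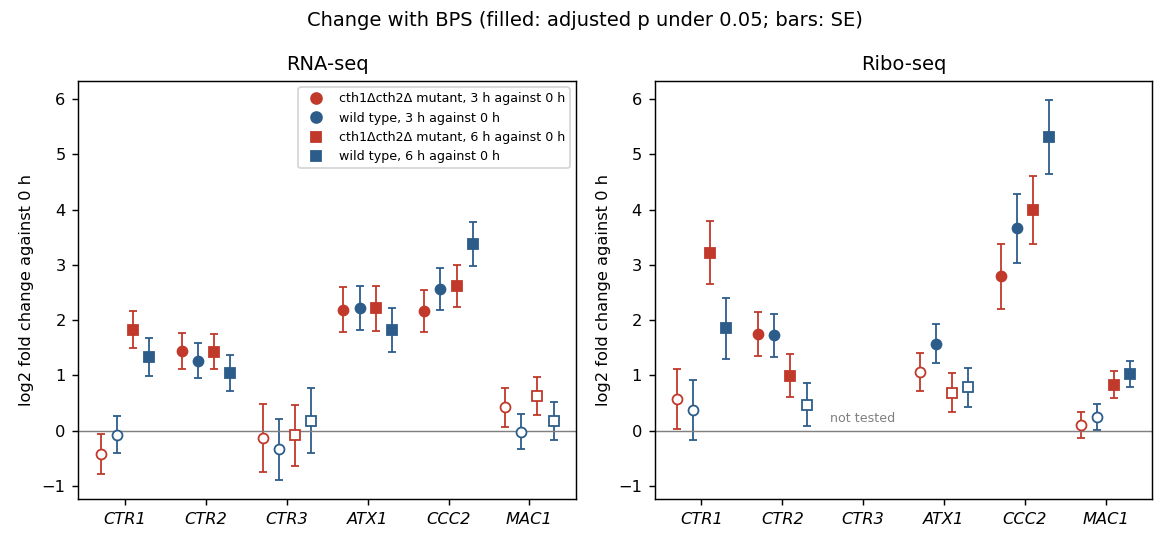
Log2 fold change against 0 h of each gene in RNA-seq and Ribo-seq at 3 h and 6 h, for the mutant and wild type; bars are SEs and filled markers passed an adjusted p of 0.05. CCC2 has the highest values at 6 h, up to 5.32 in wild-type footprints, and CTR1 lies near 0 at 3 h in RNA.

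The strains were not told apart in any of the 6 genes. In the comparison of the mutant with wild type at 0, 3 and 6 h, edgeR called 0 of 6 genes in RNA and 0 of 5 in Ribo-seq, and DESeq2 called 0 as well. The share of all features called was 0.0167%, 0.45% and 0.783% in RNA, and 0.0188%, 0.865% and 6.27% in Ribo-seq. At an unadjusted p under 0.05 there was 1 gene in all, CTR1 footprints at 6 h, where 962 of 5315 features had such a p. The CTR1 log2 fold change, mutant over wild type, was 1.17 (SE 0.53, adjusted p = 0.242). The libraries overlapped, since 108 CPM in the mutant lay below 130.5 CPM in wild type, and the adjusted p ranged from 0.0994 to 0.58 over the alternatives. CTR1 RNA at the same time gave 0.55 (SE 0.33, adjusted p = 0.732).

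In 2 further comparisons the libraries of the strains did not overlap, and the test did not pass. How many of all features separate in this way was not counted, so this is a description and sets neither gene apart. CTR2 RNA at 6 h was 149, 139 and 117 CPM in the mutant against 81.6, 97.7 and 115 CPM in wild type (log2 0.41, SE 0.31, adjusted p = 0.85). CCC2 footprints at 0 h were 18.2, 18.6 and 16.9 CPM in the mutant against 3.1, 7.85 and 11.6 CPM in wild type (1.09, SE 0.61, adjusted p = 1), on 47, 22 and 195 reads in the mutant and 4, 9 and 216 in wild type. For the other genes and times the differences ran from -0.40 to 0.55 with SEs from 0.23 to 0.61.

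The strains' responses to BPS were also compared directly, as the mutant's change minus the wild type's. Of the 6 genes in RNA and 5 in Ribo-seq, 0 were called at 3 h or 6 h by edgeR, and 0 had an unadjusted p under 0.05. Over all features, 168 and 470 of 6006 in RNA and 197 and 767 of 5315 in Ribo-seq had such a p. All features called amounted to 0.0167% and 0.0333% in RNA and to 0.282% and 2.97% in Ribo-seq. At 6 h the footprint response of CTR1 was higher in the mutant by 1.37 (SE 0.77, adjusted p = 0.447), and the difference for CCC2 was -1.32 (SE 0.81, adjusted p = 0.514). The SEs of the 6 h difference were 0.33 to 0.81 in Ribo-seq, so differences of that size were not resolved with 3 replicates.

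**Figure D5:**
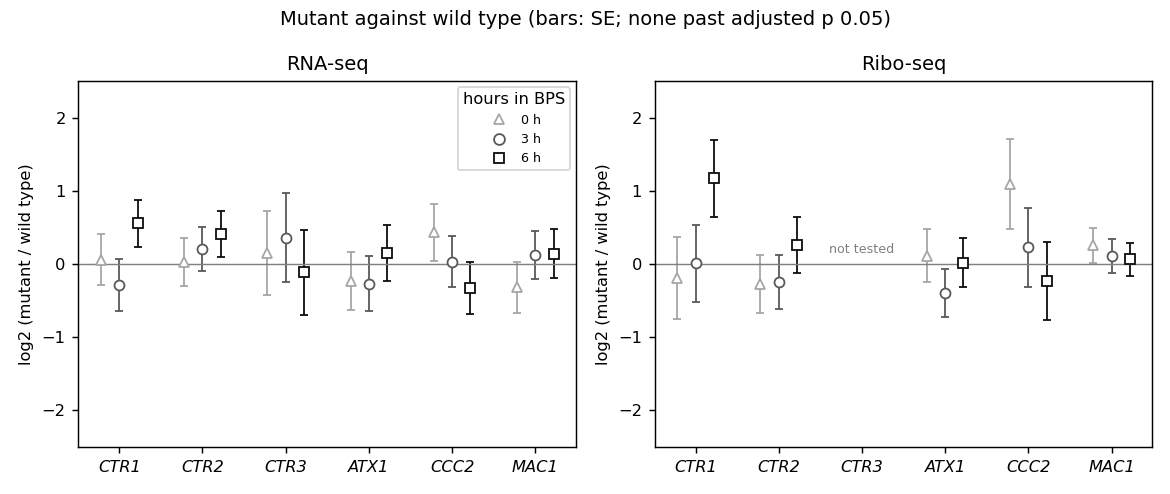
Log2 of mutant over wild type for each gene at 0, 3 and 6 h, in RNA-seq and Ribo-seq; bars are SEs and open markers did not pass an adjusted p of 0.05. The points lie between -0.40 and 1.17, and CTR1 footprints at 6 h are the highest.

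Translational efficiency is the footprint change minus the RNA change, tested in 1 model of all 36 libraries on 5290 features. For 5 genes and 11 contrasts, 0 changes were called by edgeR. The share of all features called was 0% at 3 h and 1.68% at 6 h in the mutant, and 0.0378% and 0.284% in wild type. From 3 h to 6 h it was 0.113% in the mutant and 0.132% in wild type, and between the strains at most 0.0189%. At an unadjusted p under 0.05 there were 1 gene at 3 h and 2 at 6 h in the mutant, and 2 at 6 h and 1 between 3 h and 6 h in wild type. Of all 5290 features, 324 at 3 h and 750 at 6 h had such a p in the mutant. In wild type 549 did at 6 h and 367 between 3 h and 6 h. ATX1 had the lowest values, log2 -1.53 (SE 0.54, adjusted p = 0.157) in the mutant and -1.08 (SE 0.54, adjusted p = 0.492) in wild type at 6 h against 0 h. With the lysate as a block, ATX1 in the mutant gave an adjusted p of 0.0547, and with total-count scaling it was called at -2.06 (adjusted p = 0.0342). CTR1 gave 1.38 (SE 0.66, adjusted p = 0.332) in the mutant and 0.48 (SE 0.67, adjusted p = 0.883) in wild type. CCC2 gave 1.35 (SE 0.69, adjusted p = 0.379) in the mutant and 1.89 (SE 0.71, adjusted p = 0.303) in wild type. MAC1 gave 0.20 (SE 0.39, adjusted p = 0.89) in the mutant and 0.82 (SE 0.39, adjusted p = 0.472) in wild type, so its call in footprints and not in RNA was not shown to be a difference between the assays.

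Levels of the 6 genes were set against each other per kilobase of coding length, as CPM per kb. In RNA at 0 h the mutant had 380 ± 144 for ATX1, 78.6 ± 45.9 for CTR2, 26.3 ± 6.68 for CTR1, 25.9 ± 5.13 for MAC1, 14.8 ± 9.21 for CTR3 and 9.46 ± 5.53 for CCC2 (SD, n = 3 each). Wild type had 439 ± 123 for ATX1, 86.0 ± 13.1 for CTR2, 32.0 ± 7.19 for MAC1, 26.6 ± 1.72 for CTR1, 13.8 ± 6.33 for CTR3 and 7.46 ± 2.42 for CCC2. The neighbours CTR1 and MAC1, and CTR3 and CCC2, had overlapping mean ± SD ranges in both strains. At 6 h the mutant had 1787 ± 805 for ATX1, 236 ± 28.6 for CTR2, 97.8 ± 34.2 for CTR1, 67.7 ± 2.18 for CCC2, 38.4 ± 10.9 for MAC1 and 16.4 ± 5.56 for CTR3. Wild type had 1618 ± 331 for ATX1, 172 ± 29.6 for CTR2, 85.3 ± 25.9 for CCC2, 65.3 ± 17.2 for CTR1, 31.2 ± 9.02 for MAC1 and 17.6 ± 15.8 for CTR3. CCC2 thus stood last in RNA at 0 h and above MAC1 and CTR3 at 6 h in both strains, while its range overlapped that of CTR1 at 6 h.

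In footprints per kilobase CTR1, ATX1, CCC2 and CTR2 were close at 6 h. In the mutant CTR1 had 159 ± 95.8 CPM per kb, ATX1 143 ± 34.3, CCC2 95.2 ± 65.7, CTR2 76.3 ± 23.2, MAC1 46.8 ± 10.5 and CTR3 2.03 ± 0.301 (SD, n = 3 each). In wild type CTR1 had 69.4 ± 32.4, ATX1 148 ± 84.2, CCC2 111 ± 56.9, CTR2 66.5 ± 43.5, MAC1 45.0 ± 5.65 and CTR3 2.12 ± 1.42. Neighbours among the first 4 had overlapping mean ± SD ranges in either strain, and CTR3 was below all others. At 0 h ATX1 had 91.7 ± 19.4 in the mutant and 84.6 ± 8.9 in wild type and CTR2 40.2 ± 10.6 and 46.6 ± 7.08, and CCC2 had 5.94 ± 0.297 and 2.49 ± 1.41.

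Listed genes that act with the iron oxidase Fet3 or in iron and copper transport rose as well. Of 10 listed genes of the iron oxidase system and of iron and copper transport, RNA rose for 5 at 3 h and 8 at 6 h in the mutant, with 2.13% and 17.8% of all features, and for 8 and 9 in wild type, with 2.66% and 19.2%; none fell. Footprints rose for 5 and 8 in the mutant, with 2.86% and 26.2% of all features, and for 6 and 8 in wild type, with 3.67% and 28.5%. Of the mutant calls at 3 h, those of FET3, FRE1 and FRE2 were each lost when any 1 of the mutant's 0 h libraries was left out (adjusted p 0.0578 to 0.115). In wild type at 3 h, FRE1 was lost without 0 h replicate 1 or 2 (adjusted p 0.0619 and 0.0531). FRE6 was lost there without any 1 of the 0 h libraries or 3 h replicate 3 (adjusted p 0.0509 to 0.107). FET3 RNA averaged 450.3 ± 267 CPM at 0 h, 1675 ± 876 at 3 h and 1577 ± 236 at 6 h in the mutant and 191 ± 41.0, 1804 ± 439 and 2451 ± 272 in wild type (SD, n = 3). Its change at 6 h was log2 1.79 (SE 0.39, adjusted p = 0.000955) in the mutant and 3.67 (SE 0.42, adjusted p = 1.04e-06) in wild type. The difference between these responses was -1.88 (SE 0.54), with an adjusted p of 0.185 in edgeR and 0.0464 in DESeq2. By edgeR with all groups in the fit, 0 of the 10 genes were called between the strains at 0, 3 or 6 h. For the difference in response at 3 h or 6 h it was also 0, in RNA and in footprints. Of all features, at most 0.783% in RNA and 6.27% in footprints were called in these comparisons. With only the 2 groups in the fit, FRE2 RNA at 6 h was called lower in the mutant (-1.60, adjusted p = 0.0312). FTR1 RNA, for the permease partner of Fet3, rose by 1.97 (adjusted p = 9.49e-05) in the mutant and 3.20 (adjusted p = 7.63e-07) in wild type. FRE2, a ferric reductase gene, rose in RNA at 6 h by 3.29 (adjusted p = 0.000126) in the mutant and 5.37 (adjusted p = 1.14e-06) in wild type, and the iron and copper transporter gene FET4 by 2.02 (adjusted p = 0.00106) and 2.92 (adjusted p = 3.46e-05). FRE6, for a vacuolar reductase, rose by 1.22 (adjusted p = 0.0145) and 2.21 (adjusted p = 0.000194); the mutant call was lost without mutant 0 h replicate 1 (adjusted p = 0.0741) or 6 h replicate 3 (adjusted p = 0.0627).

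Of 4 other listed Mac1 targets, 1 rose in RNA at 3 h in each strain, with 2.13% of all features in the mutant and 2.66% in wild type. By 6 h, 1 had risen in the mutant, with 17.8% of all features, and 2 in wild type, with 19.2%. FRE1 was called each time, and the call of FRE7 in wild type depended on the fit. Both are also among the 10 genes above, and the 9 of those called in wild-type RNA at 6 h include FRE7. FRE1, the plasma membrane reductase that serves copper and iron uptake, rose already at 3 h, by log2 2.55 (SE 0.43, adjusted p = 0.00119) in mutant RNA and 2.99 (SE 0.44, adjusted p = 0.000178) in wild-type RNA. At 6 h it was 3.23 (adjusted p = 1.02e-05) and 3.51 (adjusted p = 3.38e-06), and its footprints were up by 4.13 (adjusted p = 0.000239) and 3.94 (adjusted p = 0.000356). FRE1 holds 3 matches to the Mac1 letters, which begin 286, 269 and 96 bases before its start codon, and no match to the Aft letters searched. Other forms of either element were not searched, and which activator acts on FRE1 was not tested. In the same window IRC7 holds 1 Mac1 match, and FRE7 and REE1 hold 0. FTR1 and CCS1, which are not on this list, hold 1 each. FRE7 RNA at 6 h gave 0.97 (SE 0.42, adjusted p = 0.0672) in the mutant and 1.21 (SE 0.45, adjusted p = 0.0407) in wild type, and the wild-type call was lost whichever 1 of the 6 libraries was left out (adjusted p 0.0615 to 0.11), with DESeq2 (adjusted p = 0.0506) and with only the 2 groups in the fit (adjusted p = 0.0788). With the replicate number as a block FRE7 RNA was called in the mutant (1.03, adjusted p = 0.0492) and not in wild type (1.15, adjusted p = 0.0518). The mutant change was also called with total-count scaling (1.73, adjusted p = 0.00231) and without mutant 0 h replicate 3 (1.55, adjusted p = 0.0329). Its footprints at 6 h gave -0.36 (adjusted p = 0.772) and -0.93 (adjusted p = 0.383). Those rest on 3, 3 and 24 reads at 0 h and 12, 3 and 3 at 6 h in the mutant. In wild type they rest on 2, 0 and 58 reads at 0 h and 1, 5 and 12 at 6 h, so depth limits them. FRE7 RNA in wild type rests on 55, 1 and 35 reads at 0 h and 4, 7 and 134 at 6 h. IRC7 and REE1 were not called, with RNA changes at 6 h of 0.53 (adjusted p = 0.424) and 0.34 (adjusted p = 0.457) in the mutant and 0.56 (adjusted p = 0.438) and -0.18 (adjusted p = 0.745) in wild type.

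Of the genes of copper buffering, 1 was called at 6 h, in mutant RNA, where 17.8% of all features rose. Of 6 listed 3 were tested; the metallothionein genes CUP1-1 and CUP1-2 were listed at 0 in all 36 libraries and CRS5 is not used here. CUP1-1 and CUP1-2 are copies of one another, and how reads that map to several places were counted is not given in the sources used here, so a listed 0 does not show that they were not expressed. CUP2, the activator of the metallothionein genes, rose in mutant RNA at 6 h by log2 1.82 (SE 0.55, adjusted p = 0.0115), a call lost without mutant 0 h replicate 3 (1.41, adjusted p = 0.105), and gave 0.44 (SE 0.64, adjusted p = 0.63) in wild type. The superoxide dismutase gene SOD1 and its copper chaperone gene CCS1 were not called; at 6 h SOD1 RNA gave -0.18 (adjusted p = 0.731) in the mutant and -0.16 (adjusted p = 0.776) in wild type, and CCS1 -0.10 (adjusted p = 0.842) and -0.23 (adjusted p = 0.645).

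Of 7 genes that deliver copper to cytochrome oxidase, none was called at 3 h. At 6 h RNA rose for 3 in the mutant, with 17.8% of all features, and for 1 in wild type, with 19.2%. Footprints rose for 5 in the mutant, with 26.2% of all features, and for 2 in wild type, with 28.5%, so the wild-type counts were at or near the background. In wild type 1 fell in RNA, where 1003 of 6006 features did, and 2 in footprints, where 1294 of 5315 did. COX11 and COX23, which act in cytochrome oxidase assembly, and COX17 were named after their values were seen. With total-count scaling SCO1, COX11 and COX23 were also called higher in mutant RNA at 6 h (adjusted p 0.0078 to 0.0413). In wild-type RNA that scaling added SCO2 (adjusted p = 0.00333). The COX17 call in mutant RNA was lost without mutant 0 h replicate 3 or 6 h replicate 2 or 3 (adjusted p 0.0505 to 0.154). COX11 RNA fell in wild type by 1.02 on the log2 scale (adjusted p = 0.0245), a call lost with total-count scaling (-0.44, adjusted p = 0.903), with DESeq2 (adjusted p = 0.0761) and with only the 2 groups in the fit (adjusted p = 0.055). It was also lost without wild-type 0 h replicate 2 or 3 or 6 h replicate 1 or 2 (adjusted p 0.0545 to 0.0913). COX23 footprints fell in wild type by 0.82 on the log2 scale (adjusted p = 0.0428), a call lost in each fit that left out 1 library except 0 h replicate 2 (adjusted p 0.0518 to 0.146). That call was also lost with total-count scaling (adjusted p = 0.0642), without the low-count filter (adjusted p = 0.0548) and with only the 2 groups in the fit (adjusted p = 0.0723). PIC2, the mitochondrial copper and phosphate carrier, rose in RNA by 2.75 (adjusted p = 0.00248) in the mutant and 2.57 (adjusted p = 0.00396) in wild type. SCO2 footprints rose by 1.48 (adjusted p = 0.000584) in the mutant and 0.86 (adjusted p = 0.0211) in wild type, and the wild-type call was lost without wild-type 0 h replicate 1 or 3 or 6 h replicate 3 (adjusted p 0.0633 to 0.102). SCO1, a copper chaperone for cytochrome oxidase, rose in mutant footprints by 1.12 (adjusted p = 0.00275) and gave -0.42 (adjusted p = 0.21) in wild type. Footprints of COX17, the copper chaperone of the mitochondrial intermembrane space, rose in the mutant by 1.43 (adjusted p = 0.00465) and fell in wild type by 1.12 on the log2 scale (adjusted p = 0.0209), a wild-type call lost without 0 h replicate 2 or 6 h replicate 1 or 2 (adjusted p 0.0607 to 0.0727). Between the strains at 6 h, footprints of 4 of the 7 were higher in the mutant, where 4.68% of all features were: COX17 by 2.61 (SE 0.39, adjusted p = 0.000528), COX23 by 1.80 (SE 0.32, adjusted p = 0.00177), SCO1 by 1.38 (SE 0.27, adjusted p = 0.0037) and COX11 by 1.08 (SE 0.29, adjusted p = 0.0325). The COX11 call was lost without mutant 6 h replicate 2 or wild-type 6 h replicate 1 or 2 (adjusted p 0.0525 to 0.301). With only the groups compared in the fit, SCO1 (adjusted p = 0.0617) and COX11 (adjusted p = 0.244) were not called. The responses at 6 h were higher in the mutant for COX17 and SCO1, where 2.22% of all features had a higher response.

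By the root mean square difference of group means in log2 CPM over the 12 groups, each gene centred within each assay, profiles were compared for the 5 genes tested in both assays. Among 5290 features, SPO74 (0.16) and MRX19 (0.27) were nearest to CTR1, ARF2 (0.22) and LOG1 (0.26) to CTR2, and YNK1 (0.28) and YDR248C (0.31) to ATX1. VMR1 (0.34) and FRE1 (0.40) were nearest to CCC2, and MKS1 (0.13) and UFD2 (0.13) to MAC1. CTR2 and ATX1 differed by 0.32, close to the nearest features of each, and every other pair among the 5 genes differed by 0.72 to 1.49. These are descriptions over groups that share their libraries.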

How the data were processed

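The authors deposited whole-number counts per gene for 36 libraries, 18 of RNA-seq and 18 of Ribo-seq. Per the submitters' processing notes, cutadapt 3.4, Bowtie 1.1.2, STAR 2.7.9a and the R64 build were used; the counting program, strand setting and handling of multiply mapped reads are not given in the sources used here. From the deposited counts, CPM with TMM factors were computed within each assay. The tests used edgeR 4.0.16 in R 4.3.3 (quasi-likelihood F test on 6 group means per assay, filterByExpr with a minimum count of 10); translational efficiency came from 1 model of all 36 libraries. SEs are the log2 fold change over the square root of F. Each contrast was adjusted by Benjamini-Hochberg over all its features. Scripts were tested on simulated data.

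Alternatives were DESeq2 1.42.0, RLE or total-count scaling, no filter, the replicate block, only the groups compared, and leaving out each library. The members and lists were chosen with earlier results of these data known. Named from the lists were FET3, FTR1, FRE1 and FRE7, and up to 3 further genes per list with the smallest adjusted p at 6 h. Per the labels' protocols, RNA-seq and Ribo-seq are aliquots of the same lysates; deviations from group means correlated by 0.026 to 0.703 within a lysate. Same-numbered samples correlated by over 0.1 in every pair for 8 of 18 pairs of groups. No 2 replicates were alike within counting noise (chi-square per degree of freedom 3.88 to 228.2 over 36 pairs). Floors of 3 counts cover counting error only.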

Additional observations from a re-analysis of the deposited data

Results flagged for a closer look

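In footprints, 2 of the 7 genes that deliver copper to cytochrome oxidase responded to 6 h of BPS differently in the mutant and in wild type, by edgeR's test of the difference itself, where 2.22% of all features had a higher response in the mutant. COX17 differed by log2 2.54 (SE 0.53, adjusted p = 0.015), and the call was lost without mutant 0 h replicate 2 (2.42, adjusted p = 0.0501). COX17 footprints in the mutant were 64, 41.5 and 51.8 CPM at 0 h and 80.5, 179.5 and 168 CPM at 6 h. In wild type they were 48.8, 61.1 and 42.9 CPM at 0 h and 14.0, 21.4 and 33.7 CPM at 6 h. At 6 h the mutant libraries were all above those of wild type, and at 0 h the strains overlapped. COX17 RNA at 6 h was 98.5, 145 and 163 CPM in the mutant and 0, 36.2 and 33.9 CPM in wild type. The 0 came from the shallowest RNA-seq library. With all groups in the fit, edgeR did not call that RNA difference. It was called by DESeq2 (2.29, adjusted p = 0.00972) and with only the 2 groups in the fit (2.26, adjusted p = 0.0391). In translational efficiency 0 of the 7 genes were called for the difference in response at 6 h.

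SCO1, another copper chaperone for cytochrome oxidase, differed by 1.53 (SE 0.38, adjusted p = 0.04), and was called in 2 of the 12 fits that left out 1 library (adjusted p 0.00499 to 0.117 over all alternatives). Its footprints were 48.9, 50.9 and 47.4 CPM in the mutant against 24.5, 14.8 and 18.1 CPM in wild type at 6 h. Its RNA at 6 h was 50.5, 51.7 and 65.0 CPM in the mutant against 14.8, 18.1 and 43.8 CPM in wild type, on 2, 5 and 284 wild-type reads. The cause of either difference was not tested.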

How the results depend on the processing

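Alternatives for single genes of the other lists were chosen after seeing the data. Over 2194 single values of the 6 genes, 2137 kept direction and side of the threshold, or were uncalled in both; 47 lost a call, 10 gained one and no called value reversed. With total counts, members called between 6 h and 3 h in wild-type RNA were 2 (1 with TMM), in mutant translational efficiency at 6 h 1 (0 with TMM), and the other listed genes called between 6 h and 3 h were 5 (2) in mutant RNA, 2 (1) in wild-type RNA and 2 (1) in wild-type footprints. Smaller moves of a count are not all listed. Among them, total counts added MAC1 in mutant RNA (adjusted p = 0.00469) and ATX1 in mutant footprints (adjusted p = 0.0455), both at 6 h against 0 h. With only the groups compared in the fit, fewer samples estimated the spread, and members called in footprints between 6 h and 3 h were 1 (2) in the mutant and 1 (4) in wild type. Leaving out 1 library gave 0 to 2 members called in mutant footprints at 3 h and 2 to 4 at 6 h, and 1 to 2 between them; in wild-type footprints it gave 1 to 3 at 3 h, 3 to 4 at 6 h and 1 to 5 between them. In RNA it gave 2 to 3 at 3 h in each strain, 4 in the mutant and 3 to 4 in wild type at 6 h, and 1 between the times. With the replicate number as a block, CCC2 footprints in the mutant between 6 h and 3 h were called (1.20, adjusted p = 0.00999), and no other call of the 6 genes changed. Total counts also moved the split of called features at 3 h in mutant RNA to 284 higher and 20 lower, against 128 and 61. Depth limits CTR3, with 3 or fewer footprint reads in 7 of 18 libraries.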
